A study of Mus musculus with 8 samples.

Results

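Full-thickness skin wounds of diabetic and control mice were compared on day 7 after wounding, through the transcripts of single immune cells. The members were all cells of the 2 day 7 libraries that carried more than 200 genes and under 20% of mitochondrial unique molecular identifiers (UMIs, each of which marks 1 captured transcript). They were 8299 of the 35158 cells kept in the 8 libraries of the series, 3646 from the diabetic and 4653 from the control wounds. Male C57BL/6J mice had been made diabetic with streptozotocin (STZ), a toxin of the insulin-producing beta cells, at 120 mg/kg from an age of 4 weeks, and the controls were wild-type mice of that strain with the same back wound. Tissue of several mice was pooled into each library, and live CD45+ cells, that is cells with the pan-leukocyte surface protein, were sorted by flow cytometry. The sample titles and the methods name CD45, whereas the source fields of the day 7 libraries read CD48+ and CD52+. STZ acts by beta cell loss, so this is a model of insulin deficiency, and neither group was described as carrying a transgene or deletion. With 1 pooled library on each side there was no replicate, so no test between diabetic and control wounds could be made. Each value below is the level of a gene as its share of the non-mitochondrial UMIs of a library or class, scaled as counts per 1e6 (CPM), and each ratio is the diabetic over the control CPM with an exact 95% interval from the counts. Those intervals cover counting error only and hold no difference between mice, sorts or library preparations.

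A skin wound first fills with neutrophils, which kill microbes and are then cleared, and later with monocytes that become macrophages. Early macrophages release inflammatory cytokines such as TNF, and later ones take up dead cells and lipids, make growth factors and carry lectins and scavenger receptors. Wounds of diabetic animals are known for inflammation that lasts longer and for slow closure. Dendritic cells carry antigen on MHC class II to T cells, regulatory T cells restrain inflammation, gamma-delta T cells of the skin make IL-17, and natural killer (NK) cells release cytotoxic granules and interferon-gamma.

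The diabetic library held 21508999 UMIs and the control library 32956113 over the cells kept, with medians of 4125 and 5219 UMIs and 1689 and 1954 genes per cell. The filter removed 10.17% of the diabetic and 1% of the control barcodes. The cells of all 8 libraries were clustered together and each cluster was called after the cell type whose markers it held. Within a class the median depth of the libraries was close. The medians were 2364 and 2361 UMIs in neutrophil-like cells, 7531 and 7752 in macrophage-like cells and 7266 and 7081 in dendritic-like cells. They were 3768 and 3778 in T cell-like cells, and 5126 and 4690 in NK cell-like cells. The diabetic library held more shallow cells, which medians do not show. With at least 500 genes per cell, 936 of 993 diabetic and 2287 of 2287 control macrophage-like cells stayed. Of the T cell-like cells, 621 of 672 and 496 of 496 did. A cluster led by the nuclear RNAs Gm26917 and Malat1 stayed unnamed, with 300 diabetic cells at a median of 516 UMIs and 197 control cells at 3085.

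The classes had different shares in the libraries. Macrophage-like cells were 27.24% of the diabetic cells, with an exact binomial interval of 25.8 to 28.7%, and 49.15% (47.7 to 50.6%) of the control cells. Dendritic-like cells were 16.43% of the diabetic and 6.94% of the control cells, and T cell-like cells 18.43% and 10.66%. Neutrophil-like cells were 21.04% and 23.38%, and NK cell-like cells 3.29% and 3.03%. Monocyte-like cells numbered 175 and 47, fibroblast-like cells 7 and 22, and osteoclast-like cells, which were led by Ctsk and Atp6v0d2, 2 and 34. These numbers depended on the clustering. With the day 7 libraries clustered alone there were 765 and 351 monocyte-like, 20 and 77 osteoclast-like and 520 and 2041 macrophage-like cells, in place of 993 and 2287, and at a resolution of 1.6 the cluster named fibroblast-like held 296 and 509. The sort, the pooling and the difference in removed barcodes can set such shares, and their part was not tested. The 6 fibroblast markers were found in both libraries, summing to 236.5 to 377.9 CPM in the diabetic and 560.8 to 749.6 CPM in the control cells of the 5 classes described here. Over all cells, fibroblast-like cells included, they summed to 968.5 and 1939 CPM, and keratinocyte markers were near 0 in both libraries.

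Over all immune cells, 11026 genes had at least 100 UMIs in the libraries together, and 6.33% of them differed by 2-fold or more. Of these, 439 (3.98%) were higher in the diabetic and 259 (2.35%) in the control wounds. For comparison, 1.38% of the genes measured on day 1, 5.02% on day 3 and 25.2% on day 5 differed by as much between the diabetic and control libraries of those days. Within the classes the share was smaller. It was 3.24% in neutrophil-like, 2.57% in macrophage-like, 1.73% in dendritic-like, 2.68% in T cell-like and 1.41% in NK cell-like cells.

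Nos2, the inducible nitric oxide synthase (chr11:78920787-78960254 in GRCm38), ranked first by the near bound of its interval among the diabetic-high genes with UMIs in both libraries. It stood at 35.2 CPM over all diabetic cells and at 1.43 CPM over all control cells, a ratio of 24.7 (18.4 to 33.9). The monocyte-like cells held 361 of the 758 diabetic Nos2 UMIs, the neutrophil-like cells 148, the fibroblast-like cells 95 and the macrophage-like cells 93. Of the 47 control UMIs, 24 were in macrophage-like and 14 in neutrophil-like cells. In T cell-like cells, which are not known for Nos2, 3.27% of the diabetic cells carried a UMI, a level that free RNA can give. The share was 8.21% in the diabetic neutrophil-like and 7.05% in the macrophage-like cells, and 54 of 175 monocyte-like cells carried one. These classes have other depths.

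Cytokines of the inflammatory list were also higher over all diabetic cells. Of its 10 members, 6 were at least 2-fold higher and none was 2-fold lower, and their median log2 ratio was 1.08 against 0.03 over all genes. Il23a, a subunit of IL-23 that sustains IL-17-making T cells (chr10:128296139-128298752), stood at 40.1 and 5.98 CPM, a ratio of 6.71 (5.74 to 7.88). Il12b, the subunit shared by IL-12 and IL-23, stood at 31.8 and 5.70 CPM, a ratio of 5.58 (4.74 to 6.59). Tnf (chr17:35199381-35202007) stood at 1227 and 589 CPM, a ratio of 2.08 (2.05 to 2.12). Il1b was 1.40-fold higher and Osm lower, at 169.9 and 237.5 CPM. Cxcl9, an interferon-gamma-induced chemokine that draws T cells (chr5:92321347-92328079), stood at 28.5 and 3.37 CPM. Of its 612 diabetic UMIs, 175 lay in the 7 fibroblast-like cells, 174 of them in a single barcode, and 133 in macrophage-like cells. Serpinb2, a plasminogen activator inhibitor, stood at 48.5 and 8.25 CPM, with 566 of 1044 diabetic UMIs in monocyte-like cells. These genes were thus carried by different classes, and Il12b lay almost wholly in dendritic-like cells, with 664 of its 684 diabetic UMIs.

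**Figure D1:**
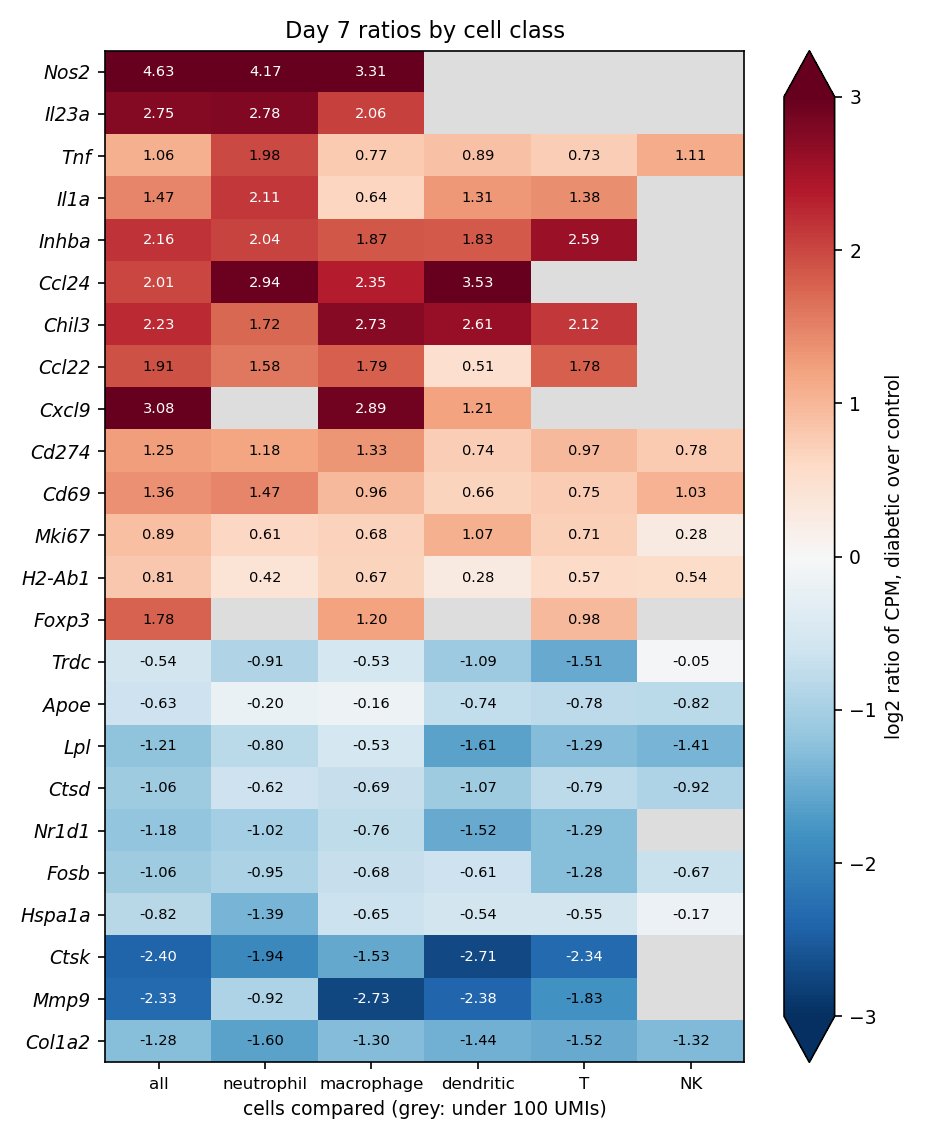
Each cell gives the log2 ratio of CPM, diabetic over control, of 1 gene (rows) over all immune cells or within 1 class (columns), in red where the diabetic and in blue where the control library was higher, and grey where a gene had under 100 UMIs. Nos2 runs from 4.63 over all cells to 4.17 in neutrophil-like and 3.31 in macrophage-like cells, while Ctsk is below 0 in each class measured.

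Part of what differed over all cells followed the class shares. When the UMIs of each class were given the same weight in both libraries, an alternative chosen after the data had been seen, 335 genes differed by 2-fold or more in place of 698, of which 165 were higher in the diabetic and 170 in the control library, so the larger number of diabetic-high genes was not kept. The log2 ratio of Nos2 was 4.63 as captured and 4.26 with equal makeup, that of Il23a 2.75 and 2.71, and that of Tnf 1.06 and 1.11. The ratios of dendritic genes moved more. Il12b went from 2.48 to 1.04, and Ccl22, a dendritic chemokine that draws regulatory T cells, from 1.91 to 0.80. Ccr7, the receptor that leads dendritic cells to lymph nodes, went from 1.22 to -0.02. Foxp3, the lineage factor of regulatory T cells, went from 1.78 to 1.07. Among genes higher in the control library, Lpl, the lipoprotein lipase, went from -1.21 to -0.65, and Slc40a1, the iron exporter, from -1.78 to -1.45.

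**Figure D2:**
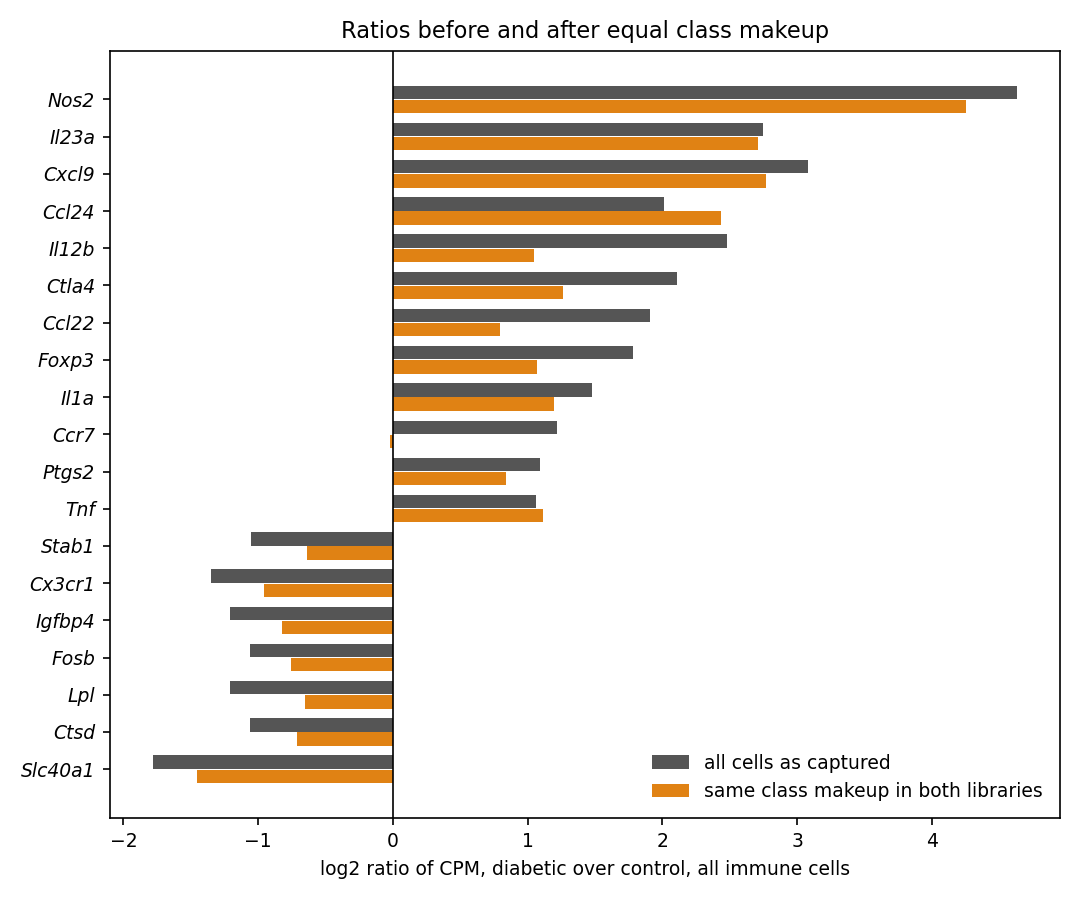
Bars give the log2 ratio of CPM, diabetic over control, over all immune cells as captured (grey) and with the same class makeup in both libraries (orange). Nos2, Il23a and Tnf keep most of their ratio, while Ccr7 goes from 1.22 to -0.02.

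Neutrophil-like cells of the diabetic wound carried more transcripts of Tnf, Il23a and Nos2, which were the 3 of 7 measured members of the inflammatory list past 2-fold, and of Il1a. There were 767 such cells in the diabetic and 1088 in the control library. Of 6570 genes measured in them, 84 (1.28%) were at least 2-fold higher in the diabetic and 129 (1.96%) in the control cells. The median log2 ratio over these genes was -0.14. When the libraries were scaled by the median of the ratios instead, the counts became 123 and 81, so the split between the directions rests on the scaling.

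Tnf stood at 2950 CPM in the diabetic and at 746.5 CPM in the control neutrophil-like cells, a ratio of 3.95 (3.81 to 4.10). Il1a, the alarmin form of IL-1, stood at 953.1 and 220.8 CPM, a ratio of 4.32 (4.03 to 4.62). Il23a stood at 165.9 and 24.2 CPM, a ratio of 6.85 (5.64 to 8.37). These 3 cytokines were spread over many cells, since no barcode held more than 191 of the 9245 diabetic Tnf UMIs, 64 of the 2987 Il1a UMIs or 22 of the 520 Il23a UMIs. Nos2 stood at 47.2 and 2.63 CPM, a ratio of 18.0 (10.4 to 33.7), with 31 and 24 of its 148 diabetic UMIs in 2 barcodes. Csf3, which encodes G-CSF, the growth factor of neutrophils, stood at 111.4 and 29.9 CPM. Inhba, the activin A subunit, stood at 335 and 81.7 CPM. With each cell named singly, the log2 ratio of Tnf went from 1.98 to 1.14, that of Il23a from 2.78 to 1.67 and that of Nos2 from 4.17 to 2.97. Il1b, by contrast, was nearly level, at 5797 and 5034 CPM, a ratio of 1.15 (1.13 to 1.17).

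When each cell was thinned to 1000 UMIs, 65.55% of the diabetic and 37.53% of the control neutrophil-like cells carried a Tnf UMI. The shares in T cell-like cells were 28.59% and 17.61%, so a difference in the same direction was present there at a lower level. Il1a was in 37.13% and 13.62% of the neutrophil-like cells, and in 9.80% and 4.25% of the T cell-like cells. Il23a was in 10.72% and 2.94% of the neutrophil-like cells, and in 0.82% and none of the T cell-like cells. Thinning left out 11.77% of all diabetic and 0.54% of all control cells, those of fewer than 1000 UMIs.

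Of the 11 CC chemokines measured in these cells, 5 were at least 2-fold higher in the diabetic library and none in the control library, and all 11 had a ratio above 1, with a median log2 ratio of 0.58. Ccl3 stood at 8897 and 4015 CPM, a ratio of 2.22 (2.18 to 2.26), and Ccl4 at 3965 and 1925 CPM. Both draw monocytes and T cells. Ccl24, an eosinophil chemokine, stood at 48.8 and 6.38 CPM, a ratio of 7.65 (5.25 to 11.4), and 42 and 39 of its 153 diabetic UMIs lay in 2 barcodes. Ccl8 stood at 615.8 and 189.1 CPM, but 426 of its 1930 diabetic UMIs came from 1 barcode, and its log2 ratio of 1.70 went to 0.25 with each cell named singly from its markers and to 0.26 with the day 7 libraries clustered alone. Ccl3 and Ccl4 also fell under 2-fold. Their log2 ratios were 0.76 and 0.85 with each cell named singly and 0.88 and 0.98 with day 7 clustered alone. Ccl22 and Ccl24 stayed above 2-fold under both. Markers of dendritic cells were also higher in the diabetic neutrophil-like cells, summing to 384.5 and 194.9 CPM, with 11 of 12 higher. Their part in the ratio of Ccl22, a dendritic chemokine, was not tested. The neutrophil-drawing chemokines Cxcl1, Cxcl2 and Cxcl3 were 1.91-fold, 1.61-fold and 1.77-fold higher, none past 2-fold.

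Of 12 genes of the NF-kappaB pathway, which take in its subunits, inhibitors and targets, 2 were at least 2-fold higher in the diabetic cells, Tnfaip3 and Icam1, 11 were above 1 and the median log2 ratio was 0.52. Tnfaip3, the ubiquitin-editing brake A20, stood at 1627 and 728 CPM, a ratio of 2.24 (2.14 to 2.33) that was under 2-fold, at log2 ratios of 0.91 and 0.96, with cells named singly and with day 7 clustered alone, and Nfkbia, the inhibitor of NF-kappaB, at 5875 and 4095 CPM. Icam1, an adhesion molecule, stood at 146.5 and 45.8 CPM. Lcn2, a granule protein that withholds iron from bacteria, stood at 1319 and 481.2 CPM, a ratio of 2.74 (2.61 to 2.88). Of 5 granule protein genes measured, 1 was at least 2-fold higher, 2 were above 1 and 3 below 1. Their median log2 ratio was -0.03, and the list summed to 9422 and 11392 CPM. The checkpoint ligand Cd274 (PD-L1) stood at 619.4 and 272.8 CPM, with its log2 ratio of 1.18 at 0.69 with cells named singly and at 0.93 with day 7 clustered alone, and Il10, an anti-inflammatory cytokine, at 603.4 and 280.7 CPM, a log2 ratio of 1.10 that went to 0.25 with day 7 clustered alone.

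The 10 neutrophil markers, which served to name the class, summed to 17940 and 17180 CPM. Of these, 3 were higher in the diabetic and 7 in the control cells. S100a8, a calcium-binding alarmin, stood at 5784 and 4890 CPM, Csf3r, the G-CSF receptor, at 424.4 and 515.4 CPM, and Cxcr2, the receptor that leads neutrophils into tissue, at 409.7 and 535.1 CPM. Of 20 genes of glucose transport, glycolysis and hypoxia, 1 passed 2-fold, Egln3, an oxygen-sensing hydroxylase, at 114.6 and 42.3 CPM.

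Of 13 heat-shock genes, 3 were at least 2-fold lower in diabetic neutrophil-like cells and 12 had a ratio below 1, with a median log2 ratio of -0.83 against -0.14 over all genes. In the same cells all 16 ribosomal protein genes were below 1, with a median log2 ratio of -0.46 and sums of 8445 and 11637 CPM, as were all 17 respiratory chain subunits, with a median of -0.43, and none of either list passed 2-fold. Of 5 measured genes of the list for nuclear RNA and low RNA quality 4 were above 1, with a median of 0.29 and sums of 4118 and 3204 CPM. The part of RNA quality in the heat-shock values was not tested. Hspa1a, an inducible HSP70, stood at 244.7 and 642.9 CPM, a ratio of 0.381 (0.352 to 0.412), and its neighbour Hspa1b at 225.6 and 559.5 CPM. With each cell named singly the log2 ratio of Hspa1a went from -1.39 to -0.74. Hspa1a and Hspa1b are near-identical copies whose reads the counting could split. Hspb1, which encodes the small chaperone HSP27, stood at 5.11 and 56.7 CPM, with 114 and 62 of its 302 control UMIs in 2 barcodes. The same list also had 12 members below 1 in macrophage-like, in dendritic-like and in T cell-like cells, with median log2 ratios of -0.24, -0.54 and -0.45. Heat-shock genes can also respond to tissue digestion, and the part of the handling was not tested. Cx3cr1, the fractalkine receptor of monocytes and macrophages, stood at 12.4 and 48.3 CPM.

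**Figure D3:**
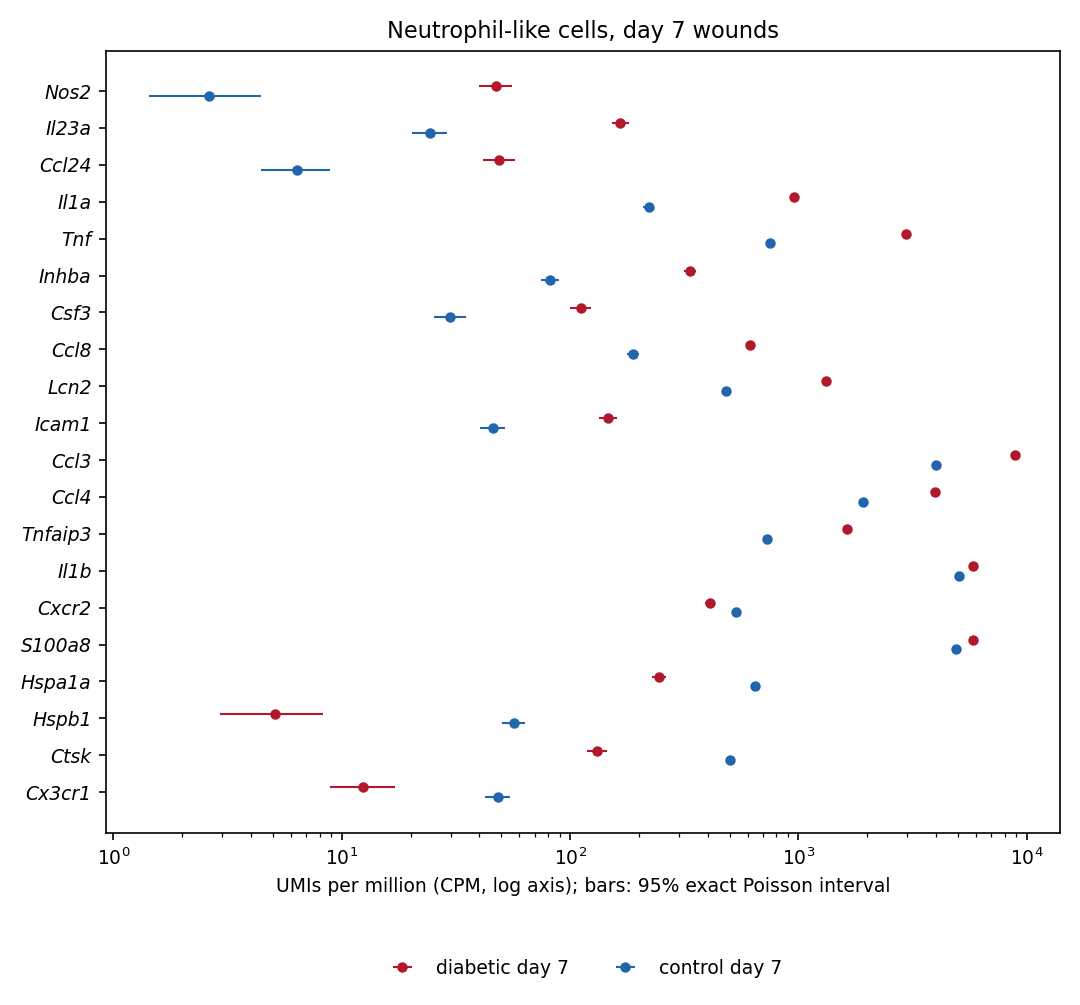
Points give the CPM of each gene (log axis) in neutrophil-like cells of the diabetic (red) and control (blue) day 7 libraries, with exact 95% Poisson intervals. Nos2, Il23a and Tnf lie apart, while Il1b, Cxcr2 and S100a8 lie close together.

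Most of the neutrophil-like class, 727 of 767 diabetic and 1043 of 1088 control cells, lay in 3 clusters that the libraries filled differently. A cluster led by Il23a, Il1a and Tnf held 168 diabetic and 25 control cells, a small one led by Hcar2 and Il1f9 held 77 and 21, and the largest, led by Cxcr2 and Csf3r beside Igkc, held 482 and 997. The other cells lay in a cluster led by interferon-stimulated genes such as Slfn4 and Rsad2 (21 and 19 cells), in one led by Igkc, Cxcr2 and Lrg1 (16 and 25) and in one led by the granule genes Ngp and Retnlg (3 and 1). The cluster led by Il23a had no neutrophil marker among its 10 leading genes. At a clustering resolution of 1.6 a cluster of 171 diabetic and 24 control cells led by the same 3 genes stayed unnamed, with a mean log2 fold of 0.22 for the neutrophil markers, and the log2 ratio of Tnf in the class named at that resolution was 1.17, that of Il1a 1.36, that of Il23a 1.68 and that of Nos2 2.84. Within the largest cluster at the resolution used, Tnf still stood at 1481 and 681 CPM, a ratio of 2.17 (2.06 to 2.29), Il1a at 388.8 and 156.8 CPM, a ratio of 2.48 (2.24 to 2.75), and Il23a at 64.0 and 20.9 CPM, a ratio of 3.07 (2.33 to 4.05). Within the cluster led by Il23a, Tnf stood at 7803 and 2739 CPM, a ratio of 2.85 (2.58 to 3.15). The ratios given inside these clusters were smaller than in the class. The class carried much macrophage RNA in both libraries, with the macrophage markers summing to 10580 and 11570 CPM against 19830 and 21550 CPM in macrophage-like cells, and none of the 10 at 0. The part of that RNA in the ratios was not tested.

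Macrophage-like cells of the diabetic wound carried more transcripts of Chil3, Retnla and Cd163, of 4 of 11 measured CC chemokines and of 4 of 14 interferon-stimulated genes. The list of resident scavenger and lectin receptors showed no common direction, with 1 of 9 at least 2-fold higher, which was Cd163, 4 above 1 and 5 below 1, and a median log2 ratio of -0.18. There were 993 diabetic and 2287 control cells of this class, in the same 3 clusters. The cluster led by Igf1 and Gdf15 held 81.47% of the diabetic and 83.6% of the control cells. The cluster led by Ccl8 and Retnla held 12.99% and 14.25%, and that led by Ms4a7 and Pf4 5.54% and 2.14%. With day 7 clustered alone the shares lay further apart. A cluster led by Gpnmb and Lpl then held 105 diabetic and 1199 control cells, and one led by Ccl8 and Cd163 held 415 and 842. Of 9217 genes measured, 126 (1.37%) were at least 2-fold higher in the diabetic and 111 (1.2%) in the control cells. The split depended on the setting, with 128 and 236 when each cell was named singly and 238 and 157 with the mean CPM over cells.

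Chil3, a chitinase-like protein (chr3:106147554-106167564), stood at 314.3 and 47.5 CPM, a ratio of 6.61 (6.13 to 7.15), with 280 of its 2358 diabetic UMIs in 1 barcode. It is also a marker used to name monocyte-like clusters, in which it stood at 456 and 152.7 CPM. Other classes differed the same way, with 54.8 and 8.11 CPM in NK cell-like and 50.8 and 11.7 CPM in T cell-like cells. The part of monocytes and of free RNA in the macrophage-like ratio was not tested. Retnla, a resistin-like protein induced by IL-4, stood at 320.2 and 159.3 CPM, a ratio of 2.01 (1.90 to 2.12). Cd163, the hemoglobin scavenger receptor, stood at 398.5 and 138 CPM, a ratio of 2.89 (2.74 to 3.04). Mrc1, the mannose receptor and a marker of the class, was nearly level at 1603 and 1405 CPM, so these genes did not all move alike. Nos2 was higher too, at 12.4 and 1.25 CPM, a ratio of 9.92 (6.28 to 16.3). Slc7a2, an arginine transporter, stood at 34.1 and 10.9 CPM.

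The lectins Cd209b and Cd209e stood at 14.4 and 0.937 CPM and at 14.5 and 1.15 CPM, the largest ratios of the class, on few UMIs. Tmem26, a membrane protein, stood at 32.1 and 3.64 CPM. Pdcd1lg2 and Cd274, the ligands of PD-1 on T cells, were both higher in the diabetic cells. Pdcd1lg2 stood at 27.6 and 5.67 CPM, a ratio of 4.86 (3.84 to 6.19), and Cd274 at 317.1 and 125.7 CPM, a ratio of 2.52 (2.38 to 2.67). Ptges and Ptgs2, which act in turn to make prostaglandin E2, stood at 35.99 and 8.28 CPM and at 1165 and 620.3 CPM. With day 7 clustered alone, both were leading genes of a cluster named monocyte-like, with 765 diabetic and 351 control cells.

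All 11 CC chemokines measured had a ratio above 1 in macrophage-like cells, 4 of them by at least 2-fold, with a median log2 ratio of 0.54. Ccl24 stood at 130.6 and 25.7 CPM, a ratio of 5.09 (4.56 to 5.68), Ccl8, which draws monocytes and T cells, at 1802 and 885.7 CPM, a ratio of 2.04 (1.99 to 2.08), and Ccl22 at 54.4 and 15.8 CPM. Ccl2, the main monocyte chemokine, was close at 845.9 and 770.8 CPM. Of 8 inflammatory cytokines measured, 2 passed 2-fold, and Tnf stood at 1133 and 662.1 CPM, a ratio of 1.71 (1.66 to 1.76). Il10 stood at 904.4 and 499.5 CPM, a ratio of 1.81 (1.76 to 1.87).

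Of 14 interferon-stimulated genes, 4 were at least 2-fold higher, 10 were above 1 and the median log2 ratio was 0.35. Rsad2, the antiviral viperin, stood at 324.5 and 136.4 CPM, Ifit1 and Ifit2, which bind foreign RNA, at 130.8 and 60.7 CPM and at 36.3 and 15.2 CPM (Ifit2 at a log2 ratio of 0.98 with cells named singly), and the GTPase Gbp2 at 64.9 and 28.9 CPM. Cxcl9 stood at 17.7 and 2.40 CPM, with 43 of 133 diabetic UMIs in 1 barcode. The 8 MHC class II genes measured were all above 1, with a median log2 ratio of 0.57, though 1 passed 2-fold. H2-Ab1, a beta chain, stood at 6644 and 4184 CPM, a ratio of 1.59 (1.57 to 1.61), and Ciita, the regulator of the class, at 20.8 and 11.1 CPM. Markers of dendritic cells, which are rich in MHC class II, were also higher in the diabetic macrophage-like cells, summing to 514.6 and 250.5 CPM with 11 of 12 higher and none at 0, and their part in the MHC class II values was not tested.

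In several other programmes of repair macrophages, differences stayed under 2-fold as clustered here. None of 8 complement genes, 15 lipid-handling genes, 12 growth factors, 17 respiratory chain subunits, 20 glycolysis and hypoxia genes and 11 genes of insulin and IGF signalling passed 2-fold in either direction. Over all genes measured in this class 2.57% did, so lists this short would hold few or none. C1qa, a subunit that starts the complement cascade, stood at 971.8 and 1073 CPM, Apoe, the lipid carrier, at 9111 and 10201 CPM, and Igf1, a growth factor of repair, at 366.9 and 369.6 CPM, a ratio of 0.993 (0.95 to 1.04). Lpl stood at 545.1 and 785.3 CPM, a ratio of 0.694 (0.670 to 0.719), and Mertk, a receptor for dead cells, at 78.0 and 134.9 CPM. Of the 15 lipid-handling genes 12 were below 1, with a median log2 ratio of -0.16 against -0.01 over all genes. With day 7 clustered alone, the cluster led by Gpnmb and Lpl held 105 of 520 diabetic and 1199 of 2041 control macrophage-like cells.

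Higher in control macrophage-like cells were, among others, Mmp9, Ctsk and Slc40a1. Mmp9, the gelatinase B (chr2:164940780-164955850), stood at 18.5 and 122.7 CPM, 6.62-fold higher in the control (5.58 to 7.92). Ctsk, the collagen-degrading cathepsin K (chr3:95499256-95509362), stood at 70.4 and 203.1 CPM, 2.89-fold higher in the control (2.63 to 3.17). Slc40a1 stood at 12.9 and 44.8 CPM, 3.47-fold higher (2.81 to 4.32). Osteoclast-like cells, of which the control library held 34 and the diabetic library 2, carried 44.24% of all control Ctsk UMIs and 37.5% of all control Mmp9 UMIs. Control neutrophil-like cells held 18.84% of all control Ctsk UMIs, at 502.8 CPM against 131.1 CPM in the diabetic ones, with a UMI in 337 of 1088 cells and 496, 362 and 270 of 2678 UMIs in 3 barcodes. In the control cells of the other 3 classes Ctsk stood at 98.7 CPM in T cell-like, 104.2 in dendritic-like and 101.3 in NK cell-like cells, against 19.5, 16.0 and 11.5 CPM in the diabetic ones. The part of RNA from osteoclast-like cells in the Ctsk and Mmp9 ratios of other classes was not tested.

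**Figure D4:**
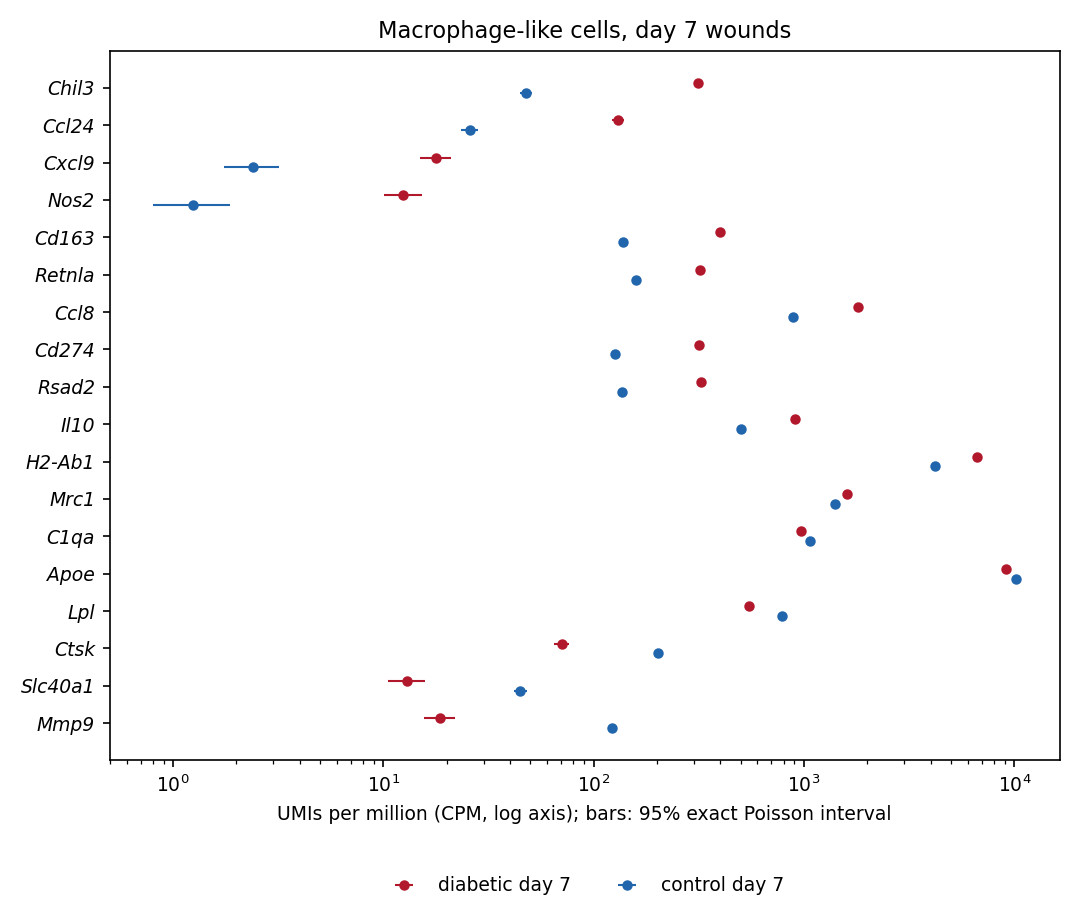
Points give the CPM of each gene (log axis) in macrophage-like cells of the diabetic (red) and control (blue) day 7 libraries, with exact 95% Poisson intervals. Chil3, Ccl24 and Cxcl9 are higher in the diabetic and Mmp9, Slc40a1 and Ctsk in the control library, while C1qa, Apoe and Mrc1 nearly coincide.

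The macrophage-like clusters shared some of these differences. In the largest, led by Igf1 and Gdf15, with 809 diabetic and 1912 control cells, Cd163 stood at 246.5 and 66.9 CPM, a ratio of 3.68 (3.40 to 3.99), and Ccl24 at 145.9 and 21.95 CPM, a ratio of 6.65 (5.86 to 7.55). In the cluster led by Ccl8, Retnla and Lyve1, with 129 and 326 cells, Cd163 stood at 1298 and 538.2 CPM, a ratio of 2.41 (2.24 to 2.60). Ccl24 there stood at 56.7 and 47.3 CPM, a ratio of 1.20 (0.87 to 1.64) whose interval holds 1. The interferon-stimulated Rsad2 was 3.25-fold higher (3.003 to 3.52) in that second cluster, at 1308 and 402.4 CPM, and 1.79-fold higher (1.64 to 1.95) in the first. Genes of T cells were also higher in diabetic macrophage-like cells at low levels, with the 9 T cell markers summing to 324.5 and 198.5 CPM and Foxp3 at 15.2 and 6.61 CPM, and with no barcode holding more than 3 Foxp3 UMIs.

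Dendritic-like cells of the diabetic wound carried more transcripts of the cell cycle as clustered here, a difference that shrank under another clustering. The class held 599 diabetic and 323 control cells, split between a cluster led by Cd209a and Mgl2 (509 and 275 cells) and one led by Fscn1 and Ccl22 (90 and 48). Of 6525 genes measured, 75 (1.15%) were at least 2-fold higher in the diabetic and 38 (0.582%) in the control cells. Of 10 cell cycle genes measured, 6 were at least 2-fold higher and 9 were above 1, with a median log2 ratio of 1.04. Markers of other cell types moved both ways in this class. T cell markers summed to 314 and 183.3 CPM, NK markers to 165 and 82.8 CPM and Langerhans cell markers to 300.6 and 180 CPM. Macrophage markers, at 4101 and 6040 CPM, and neutrophil markers, at 2212 and 2848 CPM, were lower. Their part in the cell cycle values was not tested. Mki67, the proliferation antigen Ki-67, stood at 166.7 and 79.5 CPM, a ratio of 2.10 (1.79 to 2.47), Top2a, the topoisomerase of dividing cells, at 71.6 and 27.6 CPM, a ratio of 2.59 (1.99 to 3.43), and Ube2c, of the anaphase machinery, at 30.8 and 8.24 CPM. With the day 7 libraries clustered alone the log2 ratio of Mki67 went from 1.07 to 0.81, that of Top2a from 1.38 to 0.56, that of Birc5, which encodes survivin, from 1.25 to 0.28, that of Stmn1, a tubulin regulator, from 1.01 to 0.67 and that of Ube2c from 1.90 to 0.25. All 5 were then under 2-fold, and Mcm5, a replication helicase subunit, kept a log2 ratio of 1.48. The same gene list had none past 2-fold in macrophage-like cells, with a median log2 ratio of 0.07. In T cell-like cells, too, none of 14 passed 2-fold, though all 14 were above 1 with a median of 0.56.

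Antigen presentation was close between the libraries in this class. None of 9 MHC class II genes passed 2-fold, against 1.73% of all genes measured in the class. Their median log2 ratio was 0.15, and H2-Ab1 stood at 18151 and 14983 CPM. The costimulatory ligands Cd80 and Cd86 were 1.05-fold and 1.11-fold higher in the diabetic cells, and Cd40 1.64-fold, at 193.2 and 117.8 CPM. Il12b stood at 143.2 and 69.2 CPM, a ratio of 2.07 (1.74 to 2.47), but 190 of 664 diabetic and 74 of 168 control UMIs came from 1 barcode each, and its log2 ratio was 0.81 with cells named singly. Ccl22 stood at 653.4 and 458.4 CPM and Ccr7 at 647.5 and 760.7 CPM.

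As in macrophage-like cells, Ccl24 and Chil3 were higher in the diabetic dendritic-like cells. Ccl24 stood at 47.7 and 4.12 CPM, a ratio of 11.6 (6.17 to 24.5), on 221 and 10 UMIs, and Chil3 at 78.1 and 12.8 CPM. Chil3 was also higher in diabetic T cell-like cells, at 50.8 and 11.7 CPM with no more than 4 UMIs in any of them. Cd209e stood at 173.6 and 38.3 CPM, with 58 of the 93 control UMIs in 1 barcode. Mgl2, a lectin that helped to name the class, stood at 904.4 and 333.6 CPM. Lipid-handling genes were lower, with 3 of 14 at least 2-fold lower, none higher by as much and a median log2 ratio of -0.75. Lpl stood at 45.5 and 138.8 CPM and Apoe at 1729 and 2895 CPM. The macrophage markers as a whole were lower in this class too, at 4101 and 6040 CPM in sum, with 8 of 10 lower and none at 0, and their part in the lipid genes was not tested.

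T cell-like cells of the diabetic wound held more transcripts of regulatory T cells and fewer of gamma-delta T cells. The class held 672 diabetic and 496 control cells. Of 6451 genes measured, 93 (1.44%) were at least 2-fold higher in the diabetic and 80 (1.24%) in the control cells, or 69 and 102 when scaled by the median of the ratios. Of 10 regulatory T cell genes, 3 were at least 2-fold higher and 8 above 1, with a median log2 ratio of 0.97. Foxp3 (chrX:7573644-7595245) stood at 308 and 156.6 CPM, a ratio of 1.97 (1.75 to 2.22). Ctla4, an inhibitory receptor of the costimulatory ligands, stood at 793.4 and 367.3 CPM, a ratio of 2.16 (lower bound 2, upper bound 2.33), and Ikzf2, the factor Helios, at 514.7 and 250.3 CPM, a ratio of 2.06 (1.87 to 2.26) and a log2 ratio of 0.94 with cells named singly. Il2ra, the IL-2 receptor chain that regulatory T cells carry at a high level, was not among them, at 1074 and 1199 CPM. After thinning to 1000 UMIs, 16.99% of the diabetic and 6.28% of the control T cell-like cells had a Foxp3 UMI, against 0.70% and 0.31% of the dendritic-like cells. The list was higher in other classes too. In macrophage-like cells 5 of 8 measured genes passed 2-fold, with a median log2 ratio of 1.14 and sums of 1138 and 610 CPM. In neutrophil-like cells 3 of 5 did, with a median of 1.10 and sums of 818.8 and 387.4 CPM. The sums in T cell-like cells were 6864 and 5739 CPM.

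Of 8 gamma-delta T cell genes measured, 4 were at least 2-fold lower in the diabetic cells and 1 was above 1, with a median log2 ratio of -0.97. Trdc, the constant region of the delta chain (chr14:54142851-54148868), stood at 237.7 and 678.4 CPM, 2.85-fold higher in the control (2.62 to 3.11), and Blk, a kinase of IL-17-making gamma-delta cells, at 64.5 and 176.2 CPM. Il17a and Il17f, the cytokines of these cells, stood at 202.1 and 408.6 CPM and at 159.6 and 344.4 CPM. Il23r, the receptor for IL-23, was level at 52.7 and 55.0 CPM, a ratio of 0.958 (0.759 to 1.21). Gzmb, a granzyme of cytotoxic and activated T cells, stood at 658.5 and 314 CPM, a ratio of 2.10 (1.93 to 2.28).

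Different clusters made up most of this class in the libraries. The cluster led by Ctla4, Trac and Icos held 75.45% of the diabetic and 45.56% of the control T cell-like cells, and the cluster led by Trdc, Il17f and Tcrg-C1 held 24.55% and 54.44%. Within the first, Foxp3 stood at 377.1 and 283.1 CPM, a ratio of 1.33 (1.18 to 1.51), Ctla4 at 966.7 and 643.9 CPM, a ratio of 1.501 (1.39 to 1.63), and Ikzf2 at 613.6 and 394.2 CPM, a ratio of 1.56 (1.41 to 1.72). Within the second, Trdc stood at 1176 and 1458 CPM, a ratio of 0.807 (0.738 to 0.882). Il17a there was 933.4 and 879.3 CPM, a ratio of 1.06 (0.955 to 1.18), and Il17f 803.8 and 735.9 CPM, a ratio of 1.09 (0.974 to 1.22), so both intervals hold 1. The ratios given inside these clusters were closer to 1 than in the class.

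**Figure D5:**
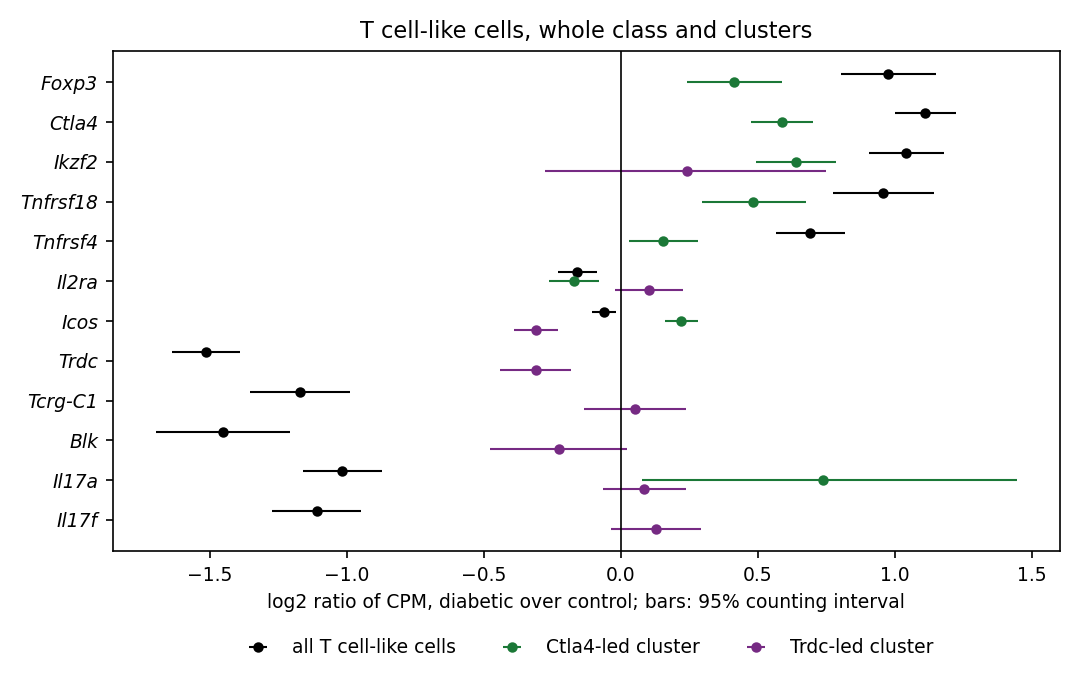
Points give the log2 ratio of CPM, diabetic over control, with 95% counting intervals, in all T cell-like cells (black), in the cluster led by Ctla4 (green) and in the cluster led by Trdc (purple), where a gene had at least 100 UMIs. Il17a lies at -1.02 in the class and at 0.09 in the cluster led by Trdc.

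Several of the largest ratios in T cell-like cells came from 1 barcode. Scd1, a fatty acid desaturase, had 118 of 141 diabetic UMIs in 1 barcode, the granzyme Gzmc 146 of 277, and the macrophage gene Cd163 120 of 225. Without that barcode the log2 ratio of Cd163 went from 1.86 to 0.83. Genes higher in the control included Ctsk, Mmp9, the microglia and macrophage gene Fcrls and the collagen gene Col1a2, none of which T cells are known for. Col1a2 stood at 62.9 and 180.8 CPM there, and fibroblast-like cells held 70.94% of the diabetic and 65.68% of the control Col1a2 UMIs. In these cells the 10 macrophage markers summed to 3833 and 6497 CPM, 9 of the 10 were higher in the control and none was at 0.

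NK cell-like cells had the smallest share of genes past 2-fold. The class held 120 diabetic and 141 control cells, and of 2759 genes measured 18 (0.652%) were at least 2-fold higher in the diabetic and 21 (0.761%) in the control cells. None of 13 cytotoxic genes passed 2-fold, with a median log2 ratio of 0.15. Gzma and Gzmb, the main granzymes, stood at 3245 and 3059 CPM and at 1491 and 1346 CPM. Prf1, the pore-forming perforin, stood at 249.5 and 279.7 CPM, a ratio of 0.892 (0.725 to 1.10). Ifng stood at 346.1 and 240.5 CPM, a ratio of 1.44 (1.18 to 1.76), and Ccl5, a chemokine of cytotoxic cells, was higher in the control at 2746 and 4944 CPM.

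Of 7 measured T cell activation and checkpoint genes, 1 was at least 2-fold higher in the diabetic NK cell-like cells, Cd69, and the median log2 ratio was 0.19. Cd69, an early activation antigen, stood at 301.4 and 147.3 CPM, a ratio of 2.05 (1.62 to 2.60), and Il2ra at 148.5 and 63.5 CPM, a ratio of 2.34 (1.64 to 3.38) that was no longer 2-fold, at a log2 ratio of 0.52, with each cell named singly. Ly6a, the interferon-induced Sca-1, stood at 170.2 and 54.0 CPM, a ratio of 3.15 (2.18 to 4.63). Tnf stood at 370.6 and 171.6 CPM, a ratio of 2.16 (1.74 to 2.69), but a log2 ratio of 0.97 without the barcode with the highest count, which held 35 of 257 UMIs. With cells named singly that of Cd69 was 0.99. Cd69 also had a ratio above 1 in the other 4 classes, with log2 ratios of 1.47 in neutrophil-like, 0.96 in macrophage-like, 0.66 in dendritic-like and 0.75 in T cell-like cells. Klra8, the activating receptor Ly49H, which helped to name the class, stood at 372.1 and 833.7 CPM. Cxcl10 and Spp1 were higher in the control, but 56 of 156 control Cxcl10 UMIs and 111 of 245 Spp1 UMIs came from 1 cell each. The macrophage gene Lyz2 stood at 1395 and 2938 CPM, and the 10 macrophage markers summed to 2936 and 5282 CPM in this class, all 10 higher in the control.

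Immunoglobulin genes were the largest control-high genes over all cells. Ighg2b, the IgG2b heavy chain (chr12:113302965-113307933), had 4720 control and no diabetic UMIs, and 3011 of the 4720 lay in 1 barcode. Igkc, the kappa light chain (chr6:70726435-70726966), had 16261 control and 690 diabetic UMIs. In the control library 2 barcodes, both clustered with the neutrophil-like cells, had 40.14% and 26.43% immunoglobulin UMIs, with 36 and 46 UMIs of Mzb1, a chaperone of antibody-secreting cells. Without both, 69.06% of the control and 7.21% of the diabetic cells still carried an Igkc UMI, among them 67.38% of the control NK cell-like and 62.1% of the control T cell-like cells, which do not make antibody. Igkc UMIs were thus found in each named class of the control library.

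The ratios of the other days differed in direction between genes. Over all cells Nos2 had a log2 ratio of 0.19 on day 1, 1.61 on day 3, 3.75 on day 5 and 4.63 on day 7. Il23a had -1.38, 0.44, 5.00 and 2.75, and Tnf -0.13, 0.58, 1.64 and 1.06. Il23a and Tnf were thus lower in the diabetic library on day 1 and higher on the later days. Ccl24 was higher in the control on days 1 and 5, at -1.46 and -2.34, and near level on day 3, at -0.06, before its ratio of 2.01 on day 7. Chil3 was higher in the diabetic library on each day, at 0.89, 2.94, 2.34 and 2.23. Each day is again 1 library a side, with other class shares, so no change over time was tested.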

How the data were processed

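The authors sorted live CD45+ cells from pooled wounds; the methods of the study name BD Rhapsody, and the series record another platform. They trimmed reads with fastp 0.20.1, assigned barcodes and UMIs and mapped with STAR. The labels name mm9 and the methods an Ensembl mouse genome; coordinates here are those of GENCODE for GRCm38. The deposited tables hold raw UMI counts per gene and barcode, with no normalization, deposited by the authors after cell barcodes had been selected with UMI-tools and before the filters below. The members and lists were chosen with earlier results of these data known.

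Barcodes with more than 200 non-mitochondrial genes and under 20% mitochondrial UMIs were kept, and mitochondrial genes were then left out. Cells of all 8 libraries were clustered together with scanpy 1.11.5 (2000 variable genes, total UMIs regressed out, 10 principal components, 30 neighbours, Leiden resolution 0.8, seed 0) in Python 3.11.15. A cluster was named after the marker list whose mean log2 fold against the remaining cells was highest, if it reached 0.25 and 3 markers were found in 10% of its cells. It stayed unnamed if Gm26917 or Malat1 ranked in its first 2 genes by fold while under 3 markers ranked in the first 10, or if its cells were shallow against their libraries and no marker was among those 10. Thresholds for names were set after clusters had been seen. Scrublet marked 0.3017% of the diabetic and 0.8167% of the control cells as doublets, which were kept; the diabetic share is low, so the doublet caller may not have worked there. Barcode names are serial numbers, so barcodes shared between libraries could not be counted; no expression profile occurred in both.

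UMIs were summed per library and class, divided by their total and given as CPM. Ratios carry the exact conditional 95% interval of 2 Poisson counts. Genes with at least 100 UMIs over both libraries were measured, and 2-fold or more was called; a count of 0 was replaced by 3 counts. Named genes were the 10 with the largest near bound per class and direction, leaving out predicted genes, and members of 37 gene lists; Nr1d1 and the other clock genes were chosen after their values had been seen. The calculation was tested on simulated counts. No p-value was computed. Some genes are not reported here.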

Additional observations from a re-analysis of the deposited data

Results flagged for a closer look

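Among the genes measured in more than 1 class, Rnf144a and Top2a had calls in opposite directions in 2 classes. Rnf144a, a ubiquitin ligase, stood at 79.5 CPM in the diabetic and 37.0 CPM in the control neutrophil-like cells, a log2 ratio of 1.10, and at 15.8 and 36.7 CPM in T cell-like cells, a log2 ratio of -1.21. Top2a stood at 71.6 and 27.6 CPM in dendritic-like cells, a log2 ratio of 1.38, and at 18.2 and 37.0 CPM in neutrophil-like cells, a log2 ratio of -1.02. In the neutrophil-like cells 43 and 37 of the 197 control Top2a UMIs lay in 2 barcodes. With day 7 clustered alone the log2 ratios of Top2a went to 0.56 and -0.28, both under 2-fold. With 1 library a side, the difference between the classes was not tested for either gene.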

How the results depend on the processing

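No paired analysis was possible because each group had 1 library on day 7. Of 294 values of named genes, 288 kept their direction under each setting that gave a value. These genes were picked as past 2-fold in the same cells, so a kept direction was likely beforehand. Of 3143 values over the settings, 2674 stayed inside the counting interval of the main value, 461 moved outside it and 8 reversed. Among those that moved, 86 did so with the mean CPM over cells, 70 with cells named singly and 69 with day 7 clustered alone. The count of genes at 2-fold or more rests on the minimum of UMIs. With at least 300 UMIs it was 370 over all cells, 74 in neutrophil-like, 96 in macrophage-like, 42 in dendritic-like, 54 in T cell-like and 6 in NK cell-like cells. With at least 50 it was 452, 423, 265, 351 and 140 in the 5 classes in that order. With the mean CPM over cells it was 398 in neutrophil-like and 395 in macrophage-like cells. With each cell named singly from its marker scores it was 123, 364, 177 and 82 in neutrophil-like, macrophage-like, dendritic-like and NK cell-like cells, and over all cells with the same class makeup, chosen after seeing the data, 335. With equal makeup Ccr7 and H2-Oa went to log2 ratios of -0.024 and -0.12. In neutrophil-like cells Slc7a2 went to -0.033 with each cell named singly, -0.27 with day 7 alone and -0.37 in the largest cluster, and Srm to 1.77 with day 7 alone. Bdh2 in macrophage-like cells went to 0.10 with the mean CPM, and Il17a to 0.74 in the largest T cell-like cluster. The causes were not tested. Clustering day 7 alone left 520 diabetic and 2041 control macrophage-like cells.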

Other observations

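Nr1d1, which encodes the clock repressor REV-ERB alpha (chr11:98767932-98775333 in GRCm38), was lower in the diabetic library in each class named here, and was chosen after its values had been seen. Over all cells it stood at 67.1 and 152.5 CPM, a ratio of 0.440 (0.415 to 0.467). It stood at 54.6 and 110.4 CPM in neutrophil-like, 110.2 and 186.4 CPM in macrophage-like, 21.6 and 61.8 CPM in dendritic-like and 54.2 and 132.4 CPM in T cell-like cells. In NK cell-like cells it had 13 and 49 UMIs. Per1, another clock gene, was closer over all cells, at 134.8 and 153.7 CPM, and Arntl stood at 13.3 and 8.95 CPM. Nr1d2, at 74.0 and 87.3 CPM, Clock, at 31.2 and 33.0 CPM, and Cry1, at 56.5 and 50.8 CPM, were close too. Bhlhe41 was lower in the diabetic library, at 12.0 and 23.1 CPM, and Bhlhe40 higher, at 611.4 and 406.3 CPM. The clock genes thus did not all move alike. In macrophage-like cells Arntl stood at 6.0 and 7.76 CPM, a ratio of 0.773 (0.541 to 1.09), and in dendritic-like cells at 10.4 and 3.71 CPM, a ratio of 2.79 (1.36 to 6.47) on 48 and 9 UMIs. It was at 45.6 and 35.0 CPM in T cell-like, 4.15 and 3.57 CPM in neutrophil-like and 21.6 and 16.2 CPM in NK cell-like cells. The log2 ratio of Nr1d1 was -0.24 on day 1, -0.70 on day 3 and -1.60 on day 5. The hour at which tissue was taken is not given in the sources used here.

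Mcpt8, a protease of basophils, had 144 UMIs in the diabetic and none in the control library, with 62 and 48 of them in 2 barcodes. Msx3 had 118 and none, spread over 72 diabetic cells with no more than 5 UMIs in any.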
